A study of Homo sapiens with 16 samples.

Results

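The p53 target genes are 37 protein-coding genes that the tumour suppressor p53 is known to switch on, taken by name from a list of well-known direct targets and not by a threshold on any value measured here. They are 37 of the 19974 protein-coding genes of the main chromosomes in the RefSeq annotation of GRCh38.p14. Each gene was taken as its annotated body extended by 1 kb on each side. A promoter window, the 300 bases that run from 250 before to 50 after an annotated start site, was at hand for 27 of the members and for 15812 protein-coding genes. GADD45A, PHLDA3, ASCC3, FBXO22, TNFRSF10A, TNFRSF10B, TNFRSF10C, TNFRSF10D, TP53INP1 and RRM2B were followed by their bodies alone.

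p53 is a transcription factor that is stabilised after DNA damage and other stress, binds a response element made of a pair of decamers, and turns on genes that stop the cell cycle, trigger apoptosis, repair DNA, adjust metabolism and feed back on p53 itself. ARID1A is a DNA-binding subunit of the SWI/SNF chromatin remodeller and is often mutated in cancer. TRIM28 is a corepressor that brings in SETDB1, a methyltransferase that writes trimethylation of histone H3 at lysine 9 (H3K9me3), a mark of heterochromatin.

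The cells were HCT116, an established line from a human colon cancer with wild-type p53, and chromatin immunoprecipitation was followed by sequencing (ChIP-seq). The groups were shARID1A cells, in which a short hairpin RNA targets ARID1A, with antibodies to H3K9me3, TRIM28 and SETDB1; shCtrl cells, which carry a control hairpin, with antibodies to ARID1A, H3K9me3, TRIM28 and SETDB1; and unmodified HCT116 cells with antibodies to ARID1A, H3K9me3 and TRIM28. Each of these 10 groups had 1 library, and each library had a peak list called against input and another called against IgG, which made 20 lists. There was no replicate, so no test between cell states was possible, and no p-value for a difference is given. p53 itself was not precipitated, no label names a treatment that activates p53, and no ARID1A library of shARID1A cells was analysed here, so the loss of ARID1A was not measured at these genes.

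The lists differed in length, which bears on every count below. Against input they held 56886 peaks for shARID1A H3K9me3, 203714 for shARID1A TRIM28 and 39245 for shARID1A SETDB1, against 92063, 70447 and 79404 for the same antibodies in shCtrl cells. The shCtrl ARID1A list held 108926 peaks, and the unmodified lists held between 11374 and 32927. The share of peaks with a q-value of at most 0.05, called strong below, ranged from 0.0355% in shCtrl TRIM28 to 47.5% in shCtrl SETDB1. Of the gene-body peaks of shARID1A H3K9me3, 28.1% overlapped a shCtrl SETDB1 peak and 6.49% a shCtrl H3K9me3 peak. Among the members' own peaks it was 8 of 29 (27.6%) and 1 of 29 (3.45%). Of the gene-body peaks of shARID1A SETDB1, 9.42% overlapped a shCtrl SETDB1 peak and 3.02% a shCtrl H3K9me3 peak. Among the members' own it was 4 of 37 (10.8%) and 0 of 37. Peaks of shARID1A H3K9me3 thus met the shCtrl library of the other label more often, and those of shARID1A SETDB1 the library of the same label. The shCtrl libraries labelled SETDB1 and H3K9me3 may have exchanged labels. Were they exchanged, each value given below for one would belong to the other, among them the 13 and 0 members with a promoter peak against input, and the differences between shARID1A and shCtrl cells for both antibodies would change. Whether they were was not tested, and the labels are used as given. No peak list or fold below pools libraries. The bases and stretches under peaks of several libraries, and the counts of libraries with a peak, do combine them, these shCtrl libraries included. Every fold is the authors' fold enrichment of a peak over its control, used to rank peaks within 1 list, and a percentile gives the place of that fold in its list.

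The windows shown first are those of the members whose promoters carried peaks in both control lists of the most libraries, with ties ordered by the highest fold. Capitals mark bases that lay under input-list peaks of at least 2 libraries, and each sequence is the RefSeq GRCh38.p14 window read 5′ to 3′ on the gene's strand. TP53I3 (a quinone oxidoreductase linked to oxidative stress in apoptosis, chr2:24084785-24085084, minus strand) had 158 such bases, PLK2 (a polo-like kinase, chr5:58460037-58460336, minus strand) 243, SESN2 (a sestrin that restrains mTORC1, chr1:28259268-28259567, plus strand) 109 and PLK3 (another polo-like kinase, chr1:44800127-44800426, plus strand) 103.
TP53I3: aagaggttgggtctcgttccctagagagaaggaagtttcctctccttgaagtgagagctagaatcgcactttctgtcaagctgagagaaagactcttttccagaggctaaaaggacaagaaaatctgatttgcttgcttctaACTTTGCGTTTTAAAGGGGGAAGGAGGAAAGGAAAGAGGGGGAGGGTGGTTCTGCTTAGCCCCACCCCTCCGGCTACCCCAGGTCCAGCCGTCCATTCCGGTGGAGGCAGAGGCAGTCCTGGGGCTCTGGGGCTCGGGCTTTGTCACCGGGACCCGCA
PLK2: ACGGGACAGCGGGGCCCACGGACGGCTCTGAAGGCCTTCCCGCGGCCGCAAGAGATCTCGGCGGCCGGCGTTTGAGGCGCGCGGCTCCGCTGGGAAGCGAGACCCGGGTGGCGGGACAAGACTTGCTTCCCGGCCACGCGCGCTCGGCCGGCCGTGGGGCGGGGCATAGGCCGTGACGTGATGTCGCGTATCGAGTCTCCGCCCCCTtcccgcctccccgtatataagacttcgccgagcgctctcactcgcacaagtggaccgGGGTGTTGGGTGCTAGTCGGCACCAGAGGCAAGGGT
SESN2: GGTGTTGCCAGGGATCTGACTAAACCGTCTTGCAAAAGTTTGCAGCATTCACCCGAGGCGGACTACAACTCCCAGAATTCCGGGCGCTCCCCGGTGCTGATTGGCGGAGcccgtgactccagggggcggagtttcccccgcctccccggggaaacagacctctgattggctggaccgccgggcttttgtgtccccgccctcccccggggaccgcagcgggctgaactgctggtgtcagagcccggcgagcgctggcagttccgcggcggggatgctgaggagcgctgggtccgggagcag
PLK3: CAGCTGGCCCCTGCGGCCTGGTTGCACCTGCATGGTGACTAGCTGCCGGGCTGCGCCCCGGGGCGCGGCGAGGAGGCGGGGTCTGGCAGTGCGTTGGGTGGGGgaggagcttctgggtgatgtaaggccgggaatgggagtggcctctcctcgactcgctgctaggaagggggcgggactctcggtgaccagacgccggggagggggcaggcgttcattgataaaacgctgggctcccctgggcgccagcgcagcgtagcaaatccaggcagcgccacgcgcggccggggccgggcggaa

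In TP53I3 the shared bases lay on both sides of the start site, and in SESN2 and PLK3 they lay in the upstream part of the window. In PLK2 they lay on both sides of the start site, with a gap over the start itself. The XPC and POLH windows ranked with these 4, but 0 bases in XPC and 1 in POLH lay under peaks of at least 2 libraries, since the peaks of different libraries lay side by side there.

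A search of the promoter windows for the p53 response element found it in 4 of the 27 members (14.8%), against 54 of 15812 protein-coding genes (0.342%). The members were listed as direct p53 targets, so that choice itself favours a higher share among them. The search took a pair of adjacent decamers of the p53 consensus on 20 bases, read on both strands, with the core C and G of each decamer fixed and at most 2 mismatches elsewhere. A simpler pattern, a pair of CATG words 6 bases apart, which can overlap the consensus, was found in 1 member (TRIAP1, 3.7%) and in 60 genes (0.379%), also on both strands. The 4 stretches are shown with the element in capitals: FAS (chr10:88991289-88991348), DDB2 (chr11:47214949-47215008), MDM2 (chr12:68808903-68808962) and AEN (chr15:88621286-88621345), all on the plus strand.
FAS: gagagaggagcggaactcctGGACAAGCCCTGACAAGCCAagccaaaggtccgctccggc
DDB2: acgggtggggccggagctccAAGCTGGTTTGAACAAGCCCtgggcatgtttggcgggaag
MDM2: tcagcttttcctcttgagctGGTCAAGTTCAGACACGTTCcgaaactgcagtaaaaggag
AEN: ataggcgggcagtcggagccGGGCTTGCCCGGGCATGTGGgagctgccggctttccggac

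MDM2, the ubiquitin ligase that degrades p53 and is itself a p53 target, was the member whose element was most often under peaks. Its element starts at -94 bp from an internal start site and was wholly covered in 4 lists, both shCtrl SETDB1 lists, the shARID1A SETDB1 list against IgG and the shCtrl H3K9me3 list against IgG. A peak of the shARID1A H3K9me3 list against IgG reached it in part. In shCtrl SETDB1 the summit lay 8 bases after the internal start, with a fold of 4.3 against input and 5.36 against IgG, both strong. In shARID1A SETDB1 a peak there was called against IgG only (fold 3.43, q above the threshold). The element of FAS, the death receptor gene, was touched by 1 list, shARID1A TRIM28 against IgG. The elements of DDB2, a damage sensor of nucleotide excision repair, and AEN, an apoptosis-enhancing nuclease, were touched by none of the 20 lists. A match is a description of these letters and not evidence of p53 binding.

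SETDB1 peaks were found on the promoters of many p53 targets in both hairpin lines. Against input, 7 of the 27 members (25.9%) had one in shARID1A cells, where 11.8% of all protein-coding genes did, and 13 (48.1%) had one in shCtrl cells, where 19.4% of all genes did. Strong input-list peaks were on 1 member in shARID1A cells, with 2.21% of all genes, and on 11 members (40.7%) in shCtrl cells, with 14.4% of all genes. Strong IgG-list peaks were on 10 members (37.0%) in shARID1A cells, with 10.6% of all genes, and on 11 (40.7%) in shCtrl cells, with 23.3%, so the contrast of the input lists was almost absent against IgG. Against IgG the counts were 22 members (81.5%) in shARID1A cells, beside 44.6% of all genes, and 14 (51.9%) in shCtrl cells, beside 28.1%. The members' share was thus above that of all genes in each of these lists, while which cell state had more members depended on the control. When at least 50% of a peak had to lie inside the window, 4 members (14.8%, beside 7.52%) had SETDB1 in shARID1A cells and 2 (7.41%, beside 7.46%) in shCtrl cells, so the members' excess in shCtrl cells was gone. With a window of 1 kb on each side of the start, the counts were 8 (29.6%, beside 16.9%) and 20 (74.1%, beside 32.5%).

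The members' windows were somewhat richer in CpG than the rest, with a median of 29 CpG and a GC content of 68.0%, against 24 and 64.7% over all genes. In shCtrl SETDB1, 6 of the 15 members with at least 29 CpG (40.0%) and 7 of the 12 with fewer (58.3%) had a promoter peak. Over all genes the shares were 12.8% and 23.5%. In shARID1A SETDB1, 33.3% of the CpG-richer members had one, beside 21.0% of such genes, and 16.7% of the others, beside 6.19%. In shARID1A TRIM28 the values were 33.3% beside 28.3%, and 16.7% beside 8.08%. The division was at the members' own median, and the part of CpG content in the members' shares was not tested.

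**Figure D1:**
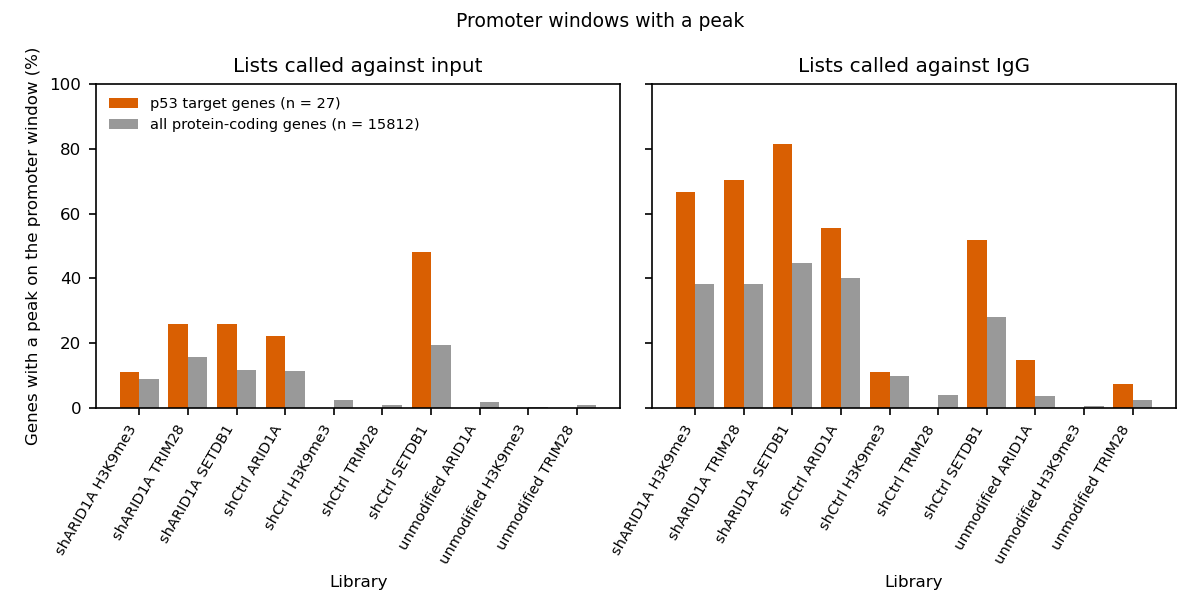
Share of genes with a peak on a promoter window (vertical axis, %) in each of the 10 libraries (horizontal axis), for lists called against input (left) and against IgG (right); orange bars are the p53 target genes (n = 27) and grey bars all protein-coding genes (n = 15812). The orange bar reaches 48.1% for shCtrl SETDB1 against input and 81.5% for shARID1A SETDB1 against IgG, and the unmodified libraries have no member with a promoter peak against input.

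Among the cell cycle and growth arrest genes, SETDB1 was called against input on the promoters of ZMAT3, BTG2 and PLK2 in shARID1A cells and of SUSD6, CCNG1 and SERTAD1 in shCtrl cells, with no member in common among the 8 that have a window. Over all genes, 22.6% of those with such a peak in shARID1A cells and 13.8% of those in shCtrl cells had one in both, so little overlap was general. ZMAT3 encodes an RNA-binding zinc finger protein, BTG2 an antiproliferative cofactor, CCNG1 cyclin G1 and SERTAD1 a regulator of CDK4. In shARID1A cells PLK2 had the highest fold of any member in the SETDB1 input list, 4.32 at the 96.6th percentile, with the summit at -137 bp from the start and a q above 0.05. In shCtrl cells its strongest SETDB1 peak (fold 6.35 against input and 7.4 against IgG) had its summit at -940 bp, outside the window. BTG2 likewise had peaks at different places: its shARID1A SETDB1 peak (fold 3.25 against input, 4.56 against IgG) had its summit at -268 bp, and its strong shCtrl peak (5.79 against input, 9.87 against IgG) at 1307 bp. CCNG1 had a strong shCtrl peak at -253 bp with folds of 5.31 and 6.03, and SERTAD1 one at -305 bp with folds of 3.41 and 5.95 against input and IgG.

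Among the apoptosis genes, TP53I3 was the only member with a promoter SETDB1 peak against input in both cell states. Its folds in shARID1A cells were 3.58 against input and 5.47 against IgG, and in shCtrl cells 3.46 and 5.06; the summits lay at 56 bp in shARID1A cells and at -163 bp in shCtrl cells. In both states the peak was strong against IgG only. FAM228B lies within 1 kb of this window, so these peaks cannot be given to TP53I3 alone. BAX and BBC3, which encode the mitochondrial pore protein BAX and the BH3-only protein PUMA, had promoter peaks against input in shCtrl cells only, with folds of 3.39 and 2.14. The BBC3 peak stood at the 3.2nd percentile of its list, among its lowest, though it reached a fold of 3.88 and the threshold against IgG. In shARID1A cells both genes had promoter peaks against IgG only, with folds of 2.93 for BAX and 3.19 for BBC3, neither of them strong.

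The DNA repair genes with a window, XPC, DDB2 and POLH, all had strong shCtrl SETDB1 promoter peaks. Over all genes 14.4% had one against input and 23.3% against IgG. The input-list summits, at -285, -282 and 177 bp in that order, lay outside the window. With at least 50% of the peak inside the window, DDB2 alone of these genes kept its input-list peak. XPC, the damage sensor that starts global nucleotide excision repair, had a fold of 4.07 against input and 5.36 against IgG. DDB2 had 3.57 and 6.34, and POLH, the translesion polymerase eta, 3.9 and 5.68. XPO5 lies within 1 kb of the POLH window, so that peak cannot be given to POLH alone. Against input, XPC was also the single member with a strong SETDB1 promoter peak in shARID1A cells, with a fold of 4.21 at the 96.3rd percentile against input and 5.25 against IgG. The 2 input-list peaks of XPC did not overlap. The shARID1A peak (chr3:14178185-14178572) had its summit 223 bases into the gene, whereas the shCtrl peak (chr3:14178715-14179065) had its summit at -285 bp. LSM3, a splicing factor gene, has its body within 1 kb of this window, so the upstream peak cannot be given to XPC alone.

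Of the metabolism and redox genes, SESN2 had promoter SETDB1 peaks in all 4 SETDB1 lists. Its folds were 2.92 against input and 6.21 against IgG in shARID1A cells, and 3.23 and 12.6 in shCtrl cells. The IgG-list peaks stood at the 99.9th and 99.2nd percentile of their lists, and the input-list peaks at the 46.9th and 41.6th. SESN2 thus ranked high only against IgG. FDXR, the mitochondrial ferredoxin reductase, had a shCtrl peak at -332 bp with folds of 5.35 against input and 9.92 against IgG, the highest promoter fold of any member in the input list, while in shARID1A cells neither SETDB1 list had a peak on the window, though an IgG-list peak met the same upstream site. SESN1, a second sestrin, and TIGAR, a fructose bisphosphatase, had none on a window against input. SESN1 had strong shCtrl SETDB1 peaks on each side of its upstream window, at 487 bp (fold 4.56) and at -500 bp (4.11), with CEP57L1 within 1 kb.

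In the feedback group, MDM2 and FBXW7 carried strong promoter SETDB1 peaks in shCtrl cells in both control lists. In shARID1A cells PPM1D and FBXW7 had strong ones against IgG (folds of 3.83 and 4.29). FBXW7, the substrate receptor of a ubiquitin ligase, had a fold of 4.8 against input over an internal start site in shCtrl cells. Its shARID1A peak against IgG had its summit at -787 bp, outside the window. PPM1D, the WIP1 phosphatase that dampens p53, had a fold of 2.61 against input in shARID1A cells at 147 bases after the start, with a q above 0.05, and 4 strong peaks in its body and flanks in shCtrl cells, of which the tallest (fold 4.55) was centred 1206 bases after the start.

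Most of the shCtrl SETDB1 promoter peaks sat upstream of the start. Their summits were upstream in 10 of 13 members, with a median position of -283, and in 79.4% of the promoter peaks of all genes, with a median of -183. In shARID1A cells 4 of the 7 members' summits were upstream, with a median of -137, beside 69.1% and -98 over all genes.

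**Figure D2:**
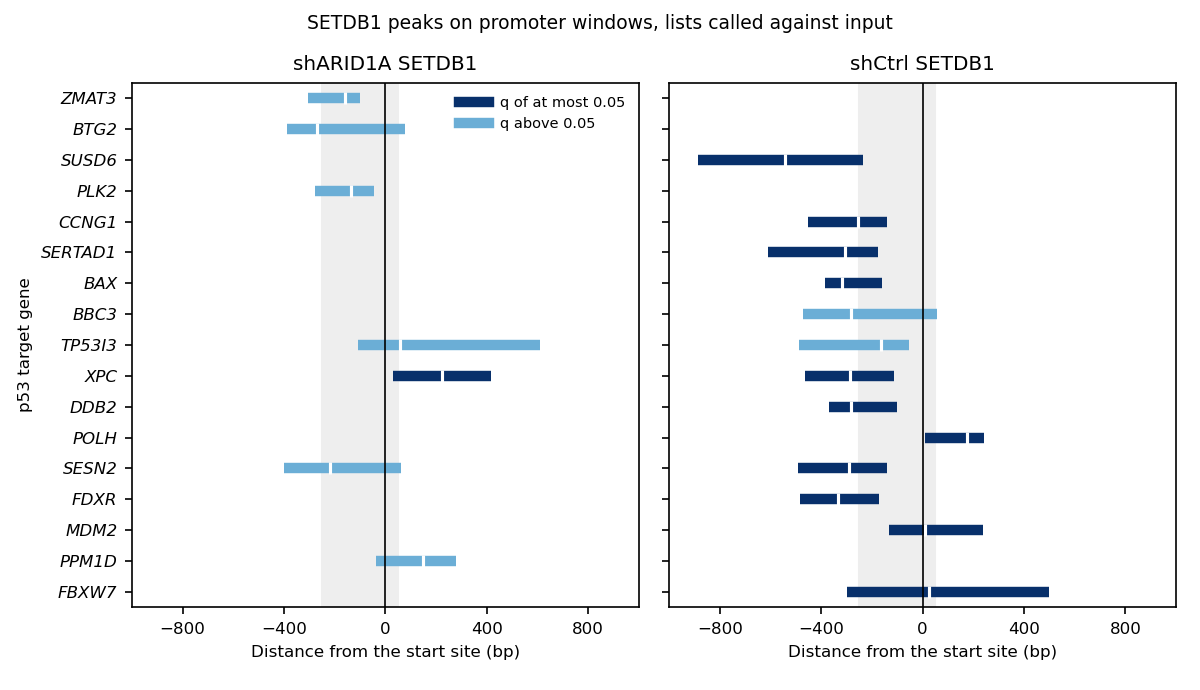
SETDB1 peaks that overlap a promoter window, drawn by distance from the start site in bp (horizontal axis) for each p53 target gene that has one (vertical axis), in shARID1A cells (left) and shCtrl cells (right), from lists called against input. Each bar spans a peak, the white tick is its summit, dark bars have a q of at most 0.05, and the grey band is the promoter window; 1 of 7 peaks is dark in shARID1A cells and 11 of 13 in shCtrl cells.

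TRIM28 was called against input on 7 members' promoters (25.9%) in shARID1A cells, where 15.8% of all genes had such a peak, and on 0 in shCtrl cells, where 0.847% of all genes had one. The 7 were PMAIP1, which encodes the BH3-only protein NOXA, FAS, ZMAT3, POLH, PLK3, PLK2 and TRIAP1, which encodes a mitochondrial inhibitor of apoptosis. Another gene lies within 1 kb of the windows of FAS (ACTA2), POLH (XPO5) and TRIAP1 (GATC). None of the 7 peaks was strong, beside 0.898% of all genes, and their folds ran between 2.26 in FAS and 3.58 in ZMAT3, which stood at the 23.3rd and 96.7th percentile. Against IgG, 19 members (70.4%) had a TRIM28 promoter peak in shARID1A cells, beside 38.2% of all genes, and 0 in shCtrl cells, beside 4.07%. The 4 strong ones, beside 4.05% of all genes, were PLK3 (fold 5.18), SERTAD1 (4.63), TRIAP1 (4.08) and PPM1D (3.94). The TRIM28 input list of shARID1A cells was the longest of all the input lists and that of shCtrl cells was shorter, and the part of list length in this difference was not tested.

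Over whole bodies the same direction held for TRIM28. A peak against input was in 32 members (86.5%) in shARID1A cells, beside 72.4% of all genes, and in 12 (32.4%) in shCtrl cells, beside 40.4% of all genes. All 12 were among the 32, as were 90.7% of the genes with a shCtrl peak over all genes. A TRIM28 peak in shARID1A cells alone was in 20 members, including CDKN1A, MDM2, BBC3 and PMAIP1. Of the members with a shARID1A peak, 37.5% also had a shCtrl peak, beside 50.6% over all genes. A TRIM28 peak in shARID1A cells alone was thus common over all genes too. When each input list was trimmed to its 10000 top peaks, the counts were 4 in shARID1A cells, beside 16.1% of all genes, and 5 in shCtrl cells, beside 13.3%, so that at equal length of the input lists shARID1A cells did not have the larger body count. With IgG lists of the same length they did, with 13 members (35.1%, beside 22.4%) in shARID1A cells and 6 (16.2%, beside 16.3%) in shCtrl cells. On promoters the trimmed input lists held 1 member (beside 2.5%) in shARID1A cells and 0 (beside 0.158%) in shCtrl cells, and the trimmed IgG lists 7 (25.9%, beside 7.32%) and 0 (beside 0.329%). With at least 50% of the peak inside the window, TRIM28 was on 4 members in shARID1A cells, beside 8.44%, and on 0 in shCtrl cells, beside 0.424%, and with the 1 kb window on 12 (beside 29.0%) and 1 (beside 4.28%). In unmodified cells 6 members (16.2%) had a TRIM28 peak, where 28.4% of all genes did, and 2 did among the top 10000 peaks, beside 13.5%. No TRIM28 body peak of a member was strong against input, beside 3.88% of all genes in shARID1A, 0.035% in shCtrl and 0.025% in unmodified cells. On promoters TRIM28 was in 0 members in unmodified cells against input, beside 0.974%, and in 2 (7.41%) against IgG, beside 2.45%.

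H3K9me3, the mark that SETDB1 writes, was scarce on these promoters against input. In shARID1A cells 3 members (11.1%) had a promoter peak, FAS, TP53I3 and PLK3, beside 8.97% of all genes; in shCtrl cells 0 had one, beside 2.57%, and in unmodified cells 0, beside 0.215%. None of the 3 peaks was strong, beside 2.84% of all genes, and their folds were 2.52, 3.27 and 3.17 in that order. Against IgG the list of shARID1A cells held 18 members (66.7%), beside 38.3% of all genes, and that of shCtrl cells 3 (11.1%), beside 9.98%. In shARID1A cells 12 of these 18 were strong, beside 20.8% of all genes, with FDXR (5.79), PLK3 (5.46) and TP53I3 (5.0) highest. The strong one in shCtrl cells was BBC3 (3.78), beside 1.75% of all genes. The members' H3K9me3 count on promoters was thus close to the background against input and above it against IgG in shARID1A cells. Among the 10000 top IgG-list peaks it was 3 (11.1%, beside 8.81%) in shARID1A cells and 1 (3.7%, beside 1.13%) in shCtrl cells. H3K9me3 in unmodified cells had 0 promoter peaks against IgG, beside 0.689%, and 0 strong body peaks, beside 0.01%.

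Over bodies H3K9me3 was near the background in both states against input. It was found against input in 15 members (40.5%) in shARID1A cells and 17 (45.9%) in shCtrl cells, where 46.8% of all genes had a peak in each, and in 6 (16.2%) in unmodified cells, beside 13.6%. Strong peaks lay in 6 members in shARID1A cells (16.2%, beside 17.4%), namely SUSD6, FBXO22, TNFRSF10D, TNFRSF10C, TP53I3 and ASCC3, and in 3 in shCtrl cells (8.11%, beside 11.7%), namely XPC, CDKN1A and FAS. No member was in both groups, while 29.9% of the genes with a strong peak in shARID1A cells and 44.7% of those in shCtrl cells were in both over all genes. Against IgG, strong peaks lay in 26 members (70.3%, beside 48.3%) in shARID1A cells and in 8 (21.6%, beside 22.8%) in shCtrl cells. The members were thus above the background in the shARID1A list by that threshold. Among the 10000 top IgG-list peaks they were not, with 8 members (21.6%, beside 21.3%) in shARID1A cells and 6 (16.2%, beside 16.3%) in shCtrl cells. The trimmed input lists held 4 members in shARID1A cells, beside 14.7%, 7 in shCtrl cells, beside 15.1%, and 5 in unmodified cells, beside 12.5%.

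CDKN1A, which encodes the cyclin-dependent kinase inhibitor p21 and is the best-known arrest target of p53, had no promoter peak in any input list. Its strong peaks were in shCtrl lists only, and those of the input lists were inside the gene. H3K9me3 had a fold of 4.58 against input, at the 95.6th percentile, with its summit 4067 bases past the start, and SETDB1 a fold of 4.01, at the 67.3rd percentile, 4157 bases past the start; the 2 peaks overlapped (chr6:36682338-36682940 and chr6:36682424-36683049). Against IgG they had folds of 5.29 and 4.75, and a further strong shCtrl SETDB1 peak against IgG (fold 3.9) lay past the gene's end (chr6:36688206-36688555). In shARID1A cells the same place carried H3K9me3 and TRIM28 peaks in the IgG lists and none in an input list. The CDKN1A H3K9me3 peak against IgG in shARID1A cells had a fold of 2.03, at the 10.4th percentile.

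A second place in CDKN1A was shared by other libraries. A stretch of 199 bases (chr6:36680354-36680552), about 1739 bases past the start, lay under input-list peaks of shARID1A TRIM28 (fold 2.92), shARID1A SETDB1 (3.14) and shCtrl ARID1A (2.57), none of them strong. The same 3 libraries shared a stretch in BBC3 (chr19:47226117-47226184) with folds of 3.02, 2.95 and 3.35, at the start of XPC (chr3:14178185-14178203) with 2.67, 4.21 and 2.88, and at the edge of ASCC3 (chr6:100881360-100881531) with 3.73, 2.36 and 3.05. These 4 members are 10.8% of the 37, and 2.13% of all protein-coding genes held such a stretch. The combination was picked after the values were seen. By the labels the shARID1A pair shares its control libraries and shCtrl ARID1A has others.

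Over all combinations, a stretch under input-list peaks of at least 3 libraries was in 11 members (29.7%) and in 26.0% of all protein-coding genes. The members with one were ASCC3, BBC3, CDKN1A, FAS, FBXW7, GADD45A, SESN1, SUSD6, TNFRSF10B, TP53I3 and XPC. Sharing of this kind was thus about as frequent in the members as in other genes. In GADD45A, a stress sensor that binds PCNA, a stretch of 341 bases (chr1:67686941-67687281) lay under peaks of shCtrl ARID1A (fold 3.02), shCtrl H3K9me3 (3.6), shCtrl SETDB1 (4.34) and unmodified ARID1A (3.04).

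SETDB1 over bodies was found in 22 members (59.5%) in shARID1A cells, beside 43.7% of all genes, and in 30 (81.1%) in shCtrl cells, beside 58.7%. Both states shared 21 members, 95.5% of those in shARID1A cells, beside 77.1% over all genes. TIGAR was the single member in shARID1A cells alone, and 9 were in shCtrl cells alone, among them BAX, GADD45A, CCNG1 and SERTAD1. Of the members with a shCtrl peak, 70.0% also had a shARID1A peak, beside 57.4% over all genes. A SETDB1 peak in shCtrl cells alone was thus common over all genes too. Strong input-list peaks were in 1 member in shARID1A cells (XPC, 2.7%, beside 3.91%) and in 24 in shCtrl cells (64.9%, beside 43.5%). Strong IgG-list peaks were in 13 (35.1%, beside 19.8%) in shARID1A cells and in 29 (78.4%, beside 58.1%) in shCtrl cells. Trimmed to 10000 top peaks, the counts were 8 in shARID1A cells, beside 20.1% of all genes, and 6 in shCtrl cells, beside 17.9%. On promoters the trimmed lists held 5 members in shARID1A cells (18.5%, beside 6.15%) and 1, FDXR, in shCtrl cells (3.7%, beside 5.39%).

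Against input, the tallest SETDB1 peak in any member was inside SUSD6, a p53-induced transmembrane protein gene. In shCtrl cells it had a fold of 11.9 against input, at the 99.1st percentile, and 9.76 against IgG (chr14:69640865-69641577), about 29536 bases past the start. In the shARID1A H3K9me3 list against input the tallest peak in any member was at the same place, with folds of 4.83 against input and 5.18 against IgG (chr14:69640974-69641321). shARID1A SETDB1 had a fold of 2.14 there, shCtrl ARID1A 3.05, and unmodified ARID1A a peak against IgG only. TRIM28 had no peak there in any list. Sites under input-list peaks of 4 libraries were also found in GADD45A, TNFRSF10B and FBXW7, and none was under more.

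Among the death receptor genes, TNFRSF10B, which encodes the TRAIL receptor DR5, had a stretch (chr8:23046574-23046963) under input-list peaks of shARID1A H3K9me3 (fold 2.66), shARID1A TRIM28 (3.01), shARID1A SETDB1 (3.25) and shCtrl SETDB1 (5.54); against IgG the shCtrl SETDB1 peak had 8.71. It also held the single strong TRIM28 peak of any member in shCtrl cells, against IgG (fold 4.56). TNFRSF10D, a decoy receptor gene, had the highest H3K9me3 fold of any member in the shARID1A list against IgG, 9.59, and 4.25 against input at the same place (chr8:23163893-23164215). TNFRSF10A, the gene of receptor DR4, had a strong shCtrl SETDB1 peak with a fold of 3.14 against input and 10.1 against IgG. In FAS the strong shCtrl H3K9me3 peak (4.27 against input, 4.23 against IgG) lay at -11362 bp from the nearest start, inside the annotated body, with ACTA2 within 1 kb.

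At the 3′ end of TP53I3 a site of several libraries was within 1 kb of SF3B6 and FAM228B (chr2:24076053-24076547 in shCtrl SETDB1). shARID1A H3K9me3 had folds of 3.86 against input and 9.0 against IgG there, and shCtrl SETDB1 3.83 and 11.4. The site was outside the TP53I3 body and cannot be given to that gene alone.

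**Figure D3:**
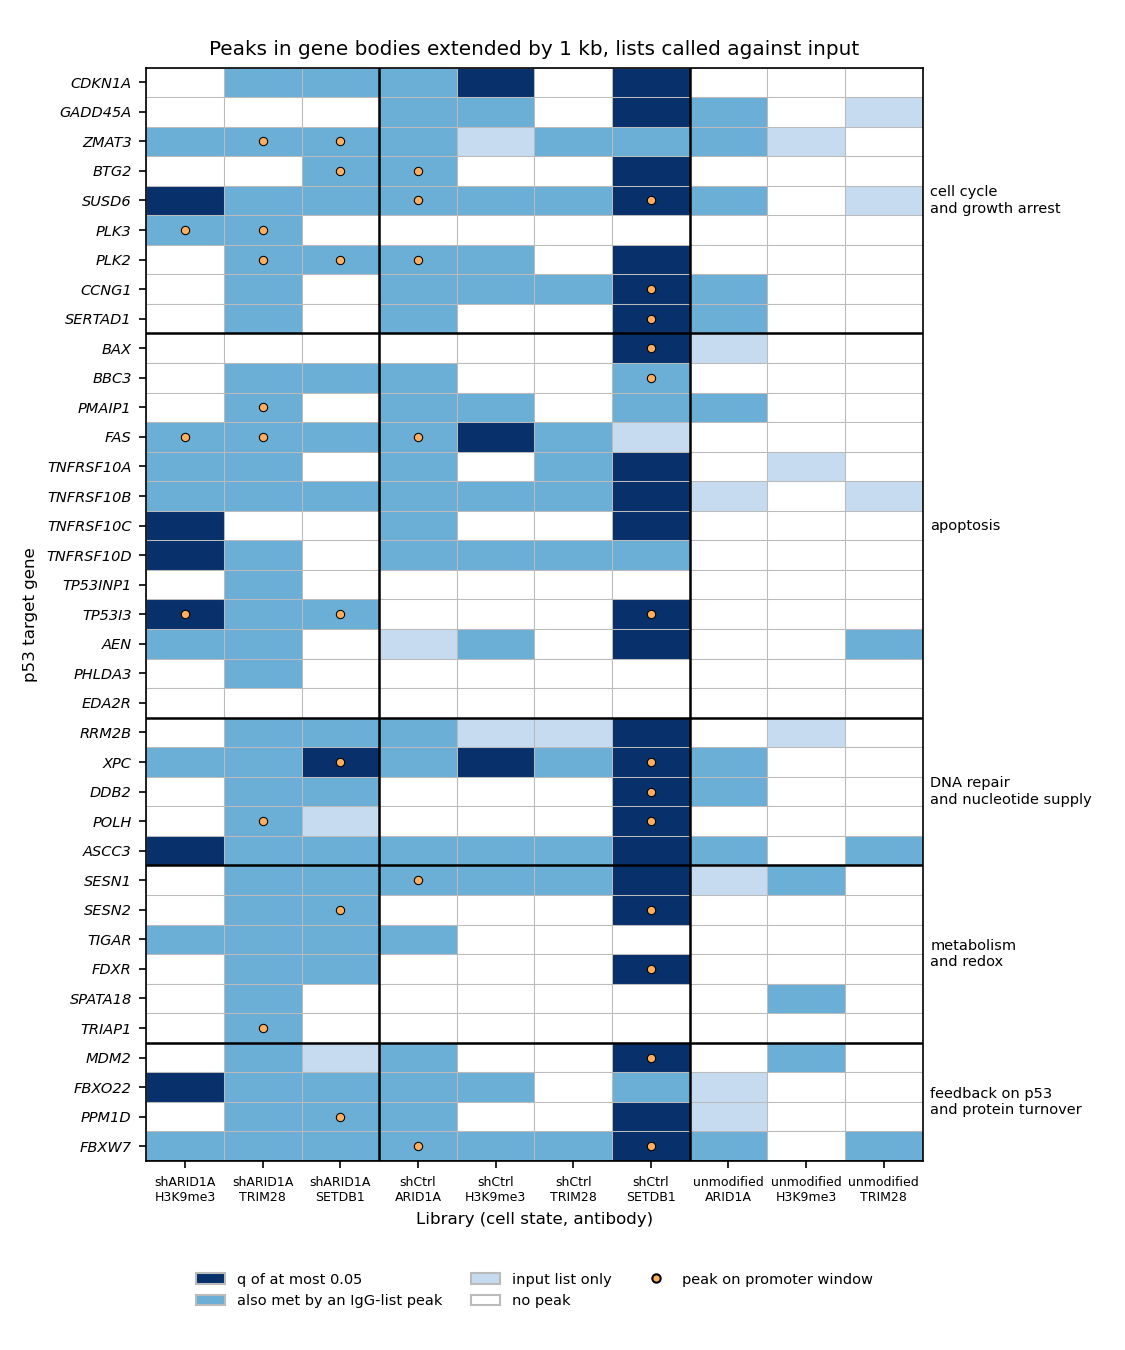
Peaks against input in the 37 p53 target genes (rows, by role) in the 10 libraries (columns, shARID1A left, shCtrl middle, unmodified right), with white for no peak, pale blue for the input list only, mid blue where an IgG-list peak overlapped it, dark blue for a q of at most 0.05, and an orange dot for a peak on a promoter window. The shCtrl SETDB1 column has 24 dark cells, and EDA2R has no peak in any column.

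ARID1A was found against input in the bodies of 25 members (67.6%) in shCtrl cells, beside 52.4% of all genes, and in 15 (40.5%) in unmodified cells, beside 25.8%. On promoters it was found in 6 members (22.2%) in shCtrl cells, beside 11.5%, namely FAS, SESN1, BTG2, SUSD6, PLK2 and FBXW7, and in 0 in unmodified cells, beside 1.73%. No ARID1A peak in a member was strong against input in either state; over all genes 0.0851% had such a body peak in shCtrl cells and 1.96% in unmodified cells. Among the 10000 top peaks ARID1A was in 12 members in shCtrl cells, beside 16.2%, and 7 in unmodified cells, beside 12.7%. On promoters the IgG lists held 15 members (55.6%) in shCtrl cells, beside 40.2%, and 4 (14.8%) in unmodified cells, beside 3.83%. The strongest promoter values were those of SESN1 (3.95 against input and 4.6 against IgG) and PLK2 (3.29 and 4.86), both strong against IgG only. Among the members' shARID1A SETDB1 peaks, 9 of 37 (24.3%) overlapped a shCtrl ARID1A peak, beside 7.35% over the gene-body peaks of all genes. A shARID1A TRIM28 peak was met by 14 (37.8%), beside 17.4%. These pairs were taken from many, and others were below all genes. None of the 37 overlapped a shCtrl H3K9me3 peak, beside 3.02%. Of the members' shCtrl SETDB1 peaks, 12.6% overlapped a shCtrl H3K9me3 peak, beside 23.9%, and 9.2% a shARID1A H3K9me3 peak, beside 17.2%.

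Counts of peaks were also set against gene length. Per Mb of body, shARID1A TRIM28 had 82.9 peaks in the members and 69.6 in all genes, shARID1A SETDB1 21.8 and 15.0, and shARID1A H3K9me3 17.0 and 18.8. shCtrl SETDB1 had 51.1 and 30.7, shCtrl ARID1A 102 and 45.6, shCtrl H3K9me3 60.6 and 36.8, and shCtrl TRIM28 35.3 and 25.5. The longest members, ASCC3, a helicase of alkylation repair, and FBXW7, held 47 and 46 of the 174 shCtrl ARID1A peaks. Without them the shCtrl values were 65.9 for SETDB1, 73.1 for ARID1A, 41.5 for H3K9me3 and 18.0 for TRIM28, which for TRIM28 is below all genes. The shARID1A values were then 101 for TRIM28, 27.1 for SETDB1 and 20.8 for H3K9me3, which for H3K9me3 is above all genes. The median fold of the members' peaks was close to that of all genes in each input list, for example 2.84 and 2.95 in shARID1A SETDB1.

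Against IgG nearly every member had a body peak in most libraries. The counts were 35 (H3K9me3), 36 (TRIM28) and 36 (SETDB1) in shARID1A cells, beside 85.4%, 83.4% and 83.6% of all genes. In shCtrl cells they were 36 (ARID1A), 34 (H3K9me3), 29 (TRIM28) and 33 (SETDB1), beside 83.8%, 77.9%, 75.9% and 71.7%. In unmodified cells they were 25 (ARID1A), 9 (H3K9me3) and 19 (TRIM28), beside 44.2%, 26.3% and 49.2%.

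The highest folds of any member against input, outside those given above, lay mostly in the longest genes. ASCC3 led shARID1A TRIM28 (3.73) and shCtrl TRIM28 (4.2), shared the lead with FBXW7 in shCtrl ARID1A (4.32 each), and with AEN in unmodified TRIM28 (2.9 each). XPC led shCtrl H3K9me3 (4.6 against input, 4.51 against IgG) and unmodified ARID1A (3.44), both at its 3′ end (chr3:14144552-14144927 in shCtrl H3K9me3), within 1 kb of TMEM43. MDM2 led unmodified H3K9me3 (2.63).

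Strong shCtrl SETDB1 body peaks were also found in genes without a promoter window. RRM2B, a ribonucleotide reductase subunit gene, had folds of 3.61 against input and 4.08 against IgG, TNFRSF10C, another decoy receptor gene, 4.22 and 3.64, and ASCC3 4.07 and 4.15. By role, strong shCtrl SETDB1 body peaks were in 7 of 9 cell cycle genes, 6 of 13 apoptosis genes, 5 of 5 DNA repair genes, 3 of 6 metabolism genes and 3 of 4 feedback genes, against input, where 43.5% of all genes had one. These groups are small, and no difference between them was tested.

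Across all 10 libraries the members had a body peak against input in a median of 5, and all genes in 4. EDA2R, a TNF receptor family gene on the X chromosome, had none against input, while TNFRSF10B, ZMAT3, SUSD6, FBXW7 and ASCC3 had one in 9. TP53INP1, an autophagy and apoptosis cofactor, PHLDA3, an inhibitor of AKT, and TRIAP1 had one in 1 library, shARID1A TRIM28. On promoters, 5 of 27 members (18.5%) had no peak in any input list, CDKN1A, TIGAR, AEN, SPATA18 and EDA2R, where 53.8% of all genes had none. SPATA18 encodes a mitochondrial quality control protein. The members' body lengths, which set how many peaks a body can hold, had a median of 27.6 kb, beside 24.2 kb over all genes.

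**Figure D4:**
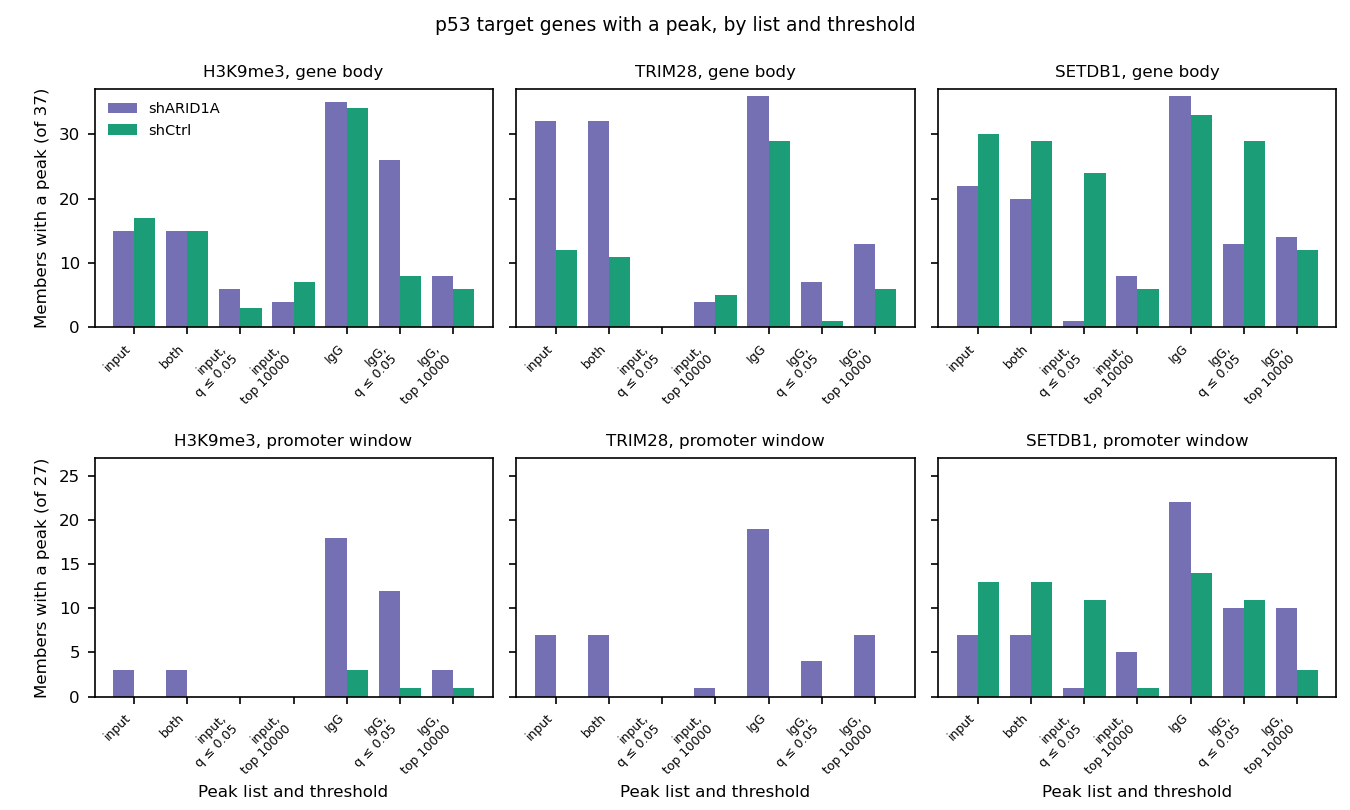
Number of p53 target genes with a peak (vertical axis) in shARID1A cells (violet) and shCtrl cells (green) for H3K9me3, TRIM28 and SETDB1, over gene bodies (top, of 37) and promoter windows (bottom, of 27), under each list and threshold (horizontal axis). For SETDB1 on promoters the shCtrl bar is higher against input (13 against 7 for shARID1A), and the shARID1A bar is higher against IgG (22 against 14) and among the 10000 top peaks (5 against 1).

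Other genes of the pathway were counted for comparison. Among regulators and cofactors of p53, 18 listed genes have a promoter window, and SETDB1 was called against input on 1 of them in shARID1A cells (ATR) and on 4 in shCtrl cells (MDM4, USP7, CHEK2 and PPP1R13L), where 11.8% and 19.4% of all genes had one. Of 20 cell cycle genes that p53 represses through the DREAM complex, 16 have a window. The counts were 2 (PLK1 and CDC25C) and 7 (CCNB2, CDK1, CCNA2, BUB1B, MKI67, TOP2A and CENPF). The DREAM genes too thus had SETDB1 in shCtrl cells more often than all genes did, while the regulators were near the share of all genes there. TRIM28 was called on the promoters of 2 regulators and 1 DREAM gene in shARID1A cells and of 1 and 0 in shCtrl cells, beside 15.8% and 0.847% of all genes.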

How the data were processed

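ChIP-seq libraries of HCT116 cells were analysed from the peak lists deposited by the authors, 16 samples in all, of which 6 were input or IgG controls. Per the submitters' processing notes MACS2 2.2.7.1, Bowtie2 2.2.5, ChIPseeker, deepTools 3.5.1 and FastQC 0.11.9 were used with the builds GRCh38 and hg38. Options for the tools: not given in the sources used here. Each deposited list gives a fold enrichment over the control (a ratio), and the −log10 p-value and −log10 q-value of each peak as the authors' caller wrote them. Read depth is unknown, so no interval was computed. The input and IgG lists of 1 library are not independent, and libraries of 1 cell state were taken from the labels to share controls.

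Titles marked CTR were read as shCtrl. The antibody products for H3K9me3 and TRIM28 differ between the protocol and the sample characteristics.

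Peaks on chromosomes 1 to 22 and X were set against RefSeq genes (GRCh38.p14) with bedtools 2.31.1, Python 3.11.15, pandas 2.3.3, numpy 2.4.6, scipy 1.17.1 and matplotlib 3.10.9, at an overlap of at least 1 bp. Bodies were extended by 1 kb, and promoter windows were 300 bp. A gene with several windows counted once. The overlap code was tested on simulated data. With 1 library in each group there was no test. The members and lists were chosen with earlier results of these data known. Members were described in full where a promoter or body peak was in both control lists at a q of at most 0.05 as the rule sets, or where they had the highest fold of an input list. The alternatives were IgG lists, peaks in both control lists, q of at most 0.05, the 10000 top peaks, 50% of a peak inside the window, and a window of 1 kb on each side of the start.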

Additional observations from a re-analysis of the deposited data

How the results depend on the processing

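Counts are members, of 37 for bodies and 27 for promoters, and differences are shARID1A minus shCtrl. With IgG lists, body counts were 35 for H3K9me3 and 36 for SETDB1 in shARID1A cells, 34 for H3K9me3 and 29 for TRIM28 in shCtrl cells, and 25 for ARID1A and 19 for TRIM28 in unmodified cells. IgG promoter counts in shARID1A cells were 18 (H3K9me3), 19 (TRIM28) and 22 (SETDB1), 15 for ARID1A and 3 for H3K9me3 in shCtrl cells, and 4 for ARID1A and 2 for TRIM28 in unmodified cells. The IgG body differences were 1 for H3K9me3 (-2 against input), 7 for TRIM28 and 3 for SETDB1 (-8 against input), and the promoter differences 15, 19 and 8 (-6 against input for SETDB1).

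At a q of at most 0.05, bodies held 6 (H3K9me3), 0 (TRIM28) and 1 (SETDB1) in shARID1A cells, 0 for ARID1A, 3 for H3K9me3 and 0 for TRIM28 in shCtrl cells, and 0 in each unmodified library. Promoters held 0 (H3K9me3), 0 (TRIM28) and 1 (SETDB1) in shARID1A cells, beside 2.84%, 0.898% and 2.21% of all genes. For ARID1A in shCtrl cells they held 0, beside 0.0316%. In bodies the differences were 3 (H3K9me3, reversed), 0 (TRIM28) and -23 (SETDB1), and the TRIM28 promoter difference was 0.

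Among the 10000 top peaks, bodies held 4 (H3K9me3), 4 (TRIM28) and 8 (SETDB1) in shARID1A cells, 12 for ARID1A, 7 for H3K9me3, 5 for TRIM28 and 6 for SETDB1 in shCtrl cells, and 7 for ARID1A and 2 for TRIM28 in unmodified cells. Promoter counts were 0 for H3K9me3 and 1 for TRIM28 in shARID1A cells, beside 2.16% and 2.5% of all genes. In shCtrl cells they were 2 for ARID1A and 1 for SETDB1, beside 2.27% and 5.39%. Differences reversed to -1 for TRIM28 and 2 for SETDB1 in bodies and 4 for SETDB1 on promoters, and the TRIM28 promoter difference was 1.

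With peaks in both control lists, 3 members (8.11%, beside 6.42%) had H3K9me3 and 3 (8.11%, beside 16.8%) had TRIM28 in unmodified bodies. The TRIM28 body difference was 21, where 66.3% of all genes had such a peak in shARID1A cells and 36.3% in shCtrl cells. With 50% of the peak inside the window, promoters held 1 (H3K9me3), 4 (TRIM28) and 4 (SETDB1) in shARID1A cells and 1 for ARID1A and 2 for SETDB1 in shCtrl cells, beside 5.79%, 8.44%, 7.52%, 5.79% and 7.46% of all genes, and the SETDB1 difference reversed to 2. With 1 kb on each side of the start, counts were 12 for TRIM28 in shARID1A cells, 3 for H3K9me3, 1 for TRIM28 and 20 for SETDB1 in shCtrl cells, and 3 for ARID1A and 1 for TRIM28 in unmodified cells, beside 29.0%, 8.41%, 4.28%, 32.5%, 4.62% and 3.46% of all genes, with differences of 11 for TRIM28 and -12 for SETDB1. The cause of these changes was not tested.

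Peaks per Mb without ASCC3 and FBXW7 were an alternative chosen after seeing the data. No paired analysis was possible because each group has 1 library and its number only names it. Lists differ in length, and neither depth nor variation between cultures can be read from them, so a difference between shARID1A and shCtrl libraries cannot be told apart from a difference between single libraries.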
